A study of Mus musculus with 12 samples.

Results

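The genes described here encode the secreted side of Wnt signaling and its cell-surface receptors, and were taken by symbol as every Wnt ligand, Frizzled receptor (Fzd), secreted frizzled-related protein (Sfrp) and Dickkopf protein (Dkk) in the expression table. There were 37 of them among 45706 genes, namely 19 Wnt ligands, 10 Fzd receptors, 4 Sfrp and 4 Dkk genes. They were measured by RNAseq in BN1-Tie2-EGFP cells, a murine hepatoblastoma (HB) line from a tumor driven by mutant forms of β-catenin (B) and NRF2 (N), in which exon sequences of the tumor suppressor gene Cdkn2a had been targeted with Crispr/Cas9. The cells also carry EGFP under the control of the Tie2/Tek promoter, which is active in endothelial cells (ECs), and were used as pooled stable clones. Both oncogenic drivers, the Cdkn2a targeting and the reporter were therefore common to the starting population of every group. Whether sorting changed the mix of Cdkn2a mutations or of pooled clones was not tested.

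The 12 libraries fell into 4 groups of 3. UN cells were unsorted monolayers in normoxia (21% oxygen), and UH cells were the same unsorted population after 2 days in 1% oxygen. SN cells were EGFP+ cells sorted after such a hypoxic exposure and then expanded in normoxia, and SH cells were obtained by putting SN cells back into 1% oxygen for 2 days. Sorted and unsorted cells thus differ in EGFP selection, an earlier hypoxic exposure and further time in culture, and the data cannot tell these apart. The sample titles call the unsorted cells EGFP+ as well, and the groups are named here by whether they were sorted. The libraries of a group are described as independent replicas, without the step at which they were separated, so the p-values measure the spread between these libraries.

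Wnt proteins are lipid-modified secreted ligands that bind Fzd receptors on nearby cells. Together with the co-receptors Lrp5 and Lrp6, Fzd receptors bound by ligand stabilize β-catenin, whereas other ligands and receptors act without it, through planar cell polarity and calcium signaling. Sfrp proteins carry a domain like the ligand-binding part of Fzd and sequester Wnt, and Dkk proteins other than Dkk3 occupy Lrp5 and Lrp6. In the liver, Wnt ligands from vascular endothelium set the zonation of hepatocytes, and mutations that stabilize β-catenin, as in these cells, act below the receptors.

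Values are TPM, transcript abundances that the authors scaled for transcript length and library total, so levels can be compared between genes. Each value is a share of its library, so comparisons between groups also depend on scaling. Median-of-ratios size factors were 0.775 to 0.956 in UH and 1.05 to 1.15 in UN libraries. UH values thus stand lower against UN in TPM than after such scaling, and summed TPM below were not rescaled. Read counts and thus the depth of each library are unknown, and precision rests on the spread between 3 libraries. Log2(TPM + 1) values of the 18909 genes with a mean of at least 0.1 TPM were fitted together with limma. Calls of higher or lower required both an adjusted p (Benjamini-Hochberg) below 0.05 and more than a 2-fold change. Because 1 was added before the logarithm, log2 fold changes of genes below a few TPM are smaller than their true ratios. Groups of 3 libraries that did not overlap gave p = 0.1 in an exact two-sided permutation test, the smallest that design allows, so calls rest on limma alone.

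1 library stood apart. UN replicate 1 (UN1) correlated with the other UN libraries at r = 0.978 and 0.977 across genes, against 0.990 between UN2 and UN3. Its mean r was 0.942 with UH, 0.952 with SN and 0.917 with SH libraries. In the same order the values were 0.930, 0.940 and 0.908 for UN2 and 0.932, 0.942 and 0.909 for UN3. Its summed TPM for 10 fibroblast or stellate cell markers was 5161, against 1323 in UN2 and 1176 in UN3, and the sum was 4853 to 7134 in UH, 201 to 211 in SN and 56.6 to 77.9 in SH libraries. Collagen genes and Acta2 carried most of that sum in unsorted cells, and other markers had other orders, such as Dcn with group means of 172, 53.8, 119 and 25.4 TPM and Pdgfrb with 44.7, 15.2, 43.8 and 6.08 TPM in UN, UH, SN and SH. The sum for 10 EC markers was 45.6 in UN1, 11.4 and 11.6 in UN2 and UN3, 53.1 to 69.3 in UH, 4.80 to 5.82 in SN and 13.6 to 16.6 in SH libraries. Eng and Flt1 carried it in unsorted cells, whereas Tek, whose promoter drives the reporter used for sorting, had group means of 0.133, 0.156, 2.49 and 3.04 TPM, and Pecam1 and Vwf were highest in SH. The defining EC genes Pecam1 and Cdh5 stayed at or below a mean of 0.359 TPM in every group, and the leukocyte gene Ptprc at or below 0.0718. The hepatocyte genes Alb and Ttr were low, with means of 2.51 and 0.0215 TPM in UN cells, whereas Krt18 ranged from 79.6 to 128 TPM over the group means. For 6 cholangiocyte (bile duct cell) markers the sum was 2844 to 3252 TPM in UN and 1182 to 1232 TPM in UH libraries. It was 4293 to 4876 TPM in SN and 1017 to 1178 TPM in SH libraries. Of the 5 cholangiocyte markers tested, 1 was called higher and 1 lower in SN vs UN. In bulk RNA fewer cells of a type and less RNA per cell cannot be told apart, and the part of these marker differences in the results below was not tested. Summed leukocyte markers were highest in SH, at 58.5 to 62.6 TPM against 5.03 to 22.5 TPM elsewhere, almost all of it from Cd68 (mean 53.9 TPM in SH), while Adgre1 and Clec4f were at or near 0. UN1 lay near UH libraries in both the fibroblast and the EC marker sums, but with UN2 and UN3 for members such as Wnt7a, Fzd4 and Fzd7. Whether it is correctly labelled was not tested, and UN means and comparisons depend on it. Because the spread of each gene was shared by all libraries, UN1 also enters the SE and p-values of pairs without UN. Calls that change without UN1 are given with and without it.

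Of the 37 genes, 24 reached a mean of at least 1 TPM in 1 or more groups and 16 did so in all 4. The number was 22 in UN, 22 in UH, 17 in SN and 19 in SH cells. Ligands numbered 8 in UN, 9 in UH, 5 in SN and 8 in SH cells, and only Wnt4, Wnt5a, Wnt6, Wnt7b and Wnt10a reached 1 TPM in every group. Fzd receptors were broadly expressed, with 9 in UN, UH and SN cells and 8 in SH cells. Sfrp genes numbered 3 in UN, 2 in UH and 1 each in SN and SH cells, and Dkk2 and Dkk3 were expressed in all groups.

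The filter for testing was passed by 28 of the 37 genes. The other 9, Wnt1, Wnt3a, Wnt8a, Wnt8b, Wnt9b, Wnt16, Sfrp5, Dkk1 and Dkk4, did not exceed 0.309 TPM in any library, and Dkk4 was listed at 0 in all of them. Wnt9b, which together with Wnt2 is a ligand of the liver's central vein endothelium, was listed at 0 in every UN, UH and SN library and at 0.0566, 0.0549 and 0.0481 TPM in SH. At least 1 of the 6 pairs of groups was called for 20 of the 28 genes (71.4%), against 37.6% of all genes tested. The 8 genes with no call in any pair were Wnt2b, Wnt3, Wnt4, Wnt10b, Fzd3, Fzd5, Fzd8 and Fzd9. With 0.1 added in place of 1, some of them had calls. Examples were Wnt10b at −2.53 in SN vs UN, Wnt4 at −1.07 in SN vs UH, and Wnt3 at 2.02 and Fzd9 at 1.01 in SH vs UN.

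**Figure D1:**
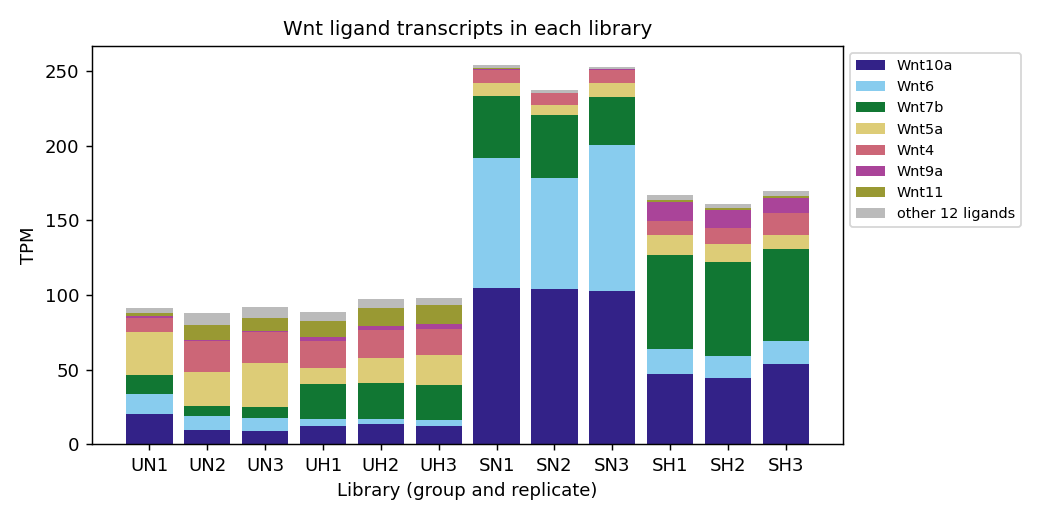
Summed TPM of the 19 Wnt ligands in each of the 12 libraries (horizontal axis, group and replicate), stacked by gene, with 12 low ligands pooled in grey. SN libraries reach 238 to 254 TPM and SH libraries 161 to 170 TPM, above the 87.9 to 98.2 TPM of UN and UH libraries, and the dark and light blue segments (Wnt10a and Wnt6) are tallest in SN.

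Sorted cells held more ligand transcript than unsorted cells and in a different composition, as the stacked plot of ligand TPM shows. The 19 ligands summed to 90.4 ± 2.18 TPM in UN (SD, n = 3), 94.7 ± 5.36 in UH, 248 ± 9.29 in SN and 166 ± 4.40 in SH cells. For the ligands with the largest shares, chosen after their values were seen, Wnt6 and Wnt10a together made up 36.8%, 21.3% and 19.2% of ligand TPM in the UN libraries, 16.8% to 19.4% in UH, 75.0% to 79.3% in SN and 36.5% to 40.6% in SH. Wnt4, Wnt5a and Wnt11, which signal largely without β-catenin, made up 44.3% to 63.9% in UN, 45.4% to 50.9% in UH, 6.21% to 7.20% in SN and 14.5% to 14.8% in SH. Wnt7b took 8.14% to 14.2% of ligand TPM in UN, 23.8% to 26.5% in UH, 12.6% to 17.8% in SN and 36.3% to 39.2% in SH, so that its share was larger in the hypoxic groups.

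The order of the ligands changed between groups. Wnt5a ranked first in UN cells at a mean of 26.9 TPM and did not overlap with the next, Wnt4. Wnt7b led in UH at 23.7 TPM and in SH at 62.8 TPM, and Wnt10a led in SN at 104 TPM, each without overlap with the ligand ranked after it. In UN cells Wnt4, Wnt10a, Wnt6, Wnt7b and Wnt11, in that order, each overlapped with its neighbor, so their order is not resolved by 3 libraries.

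**Figure D2:**
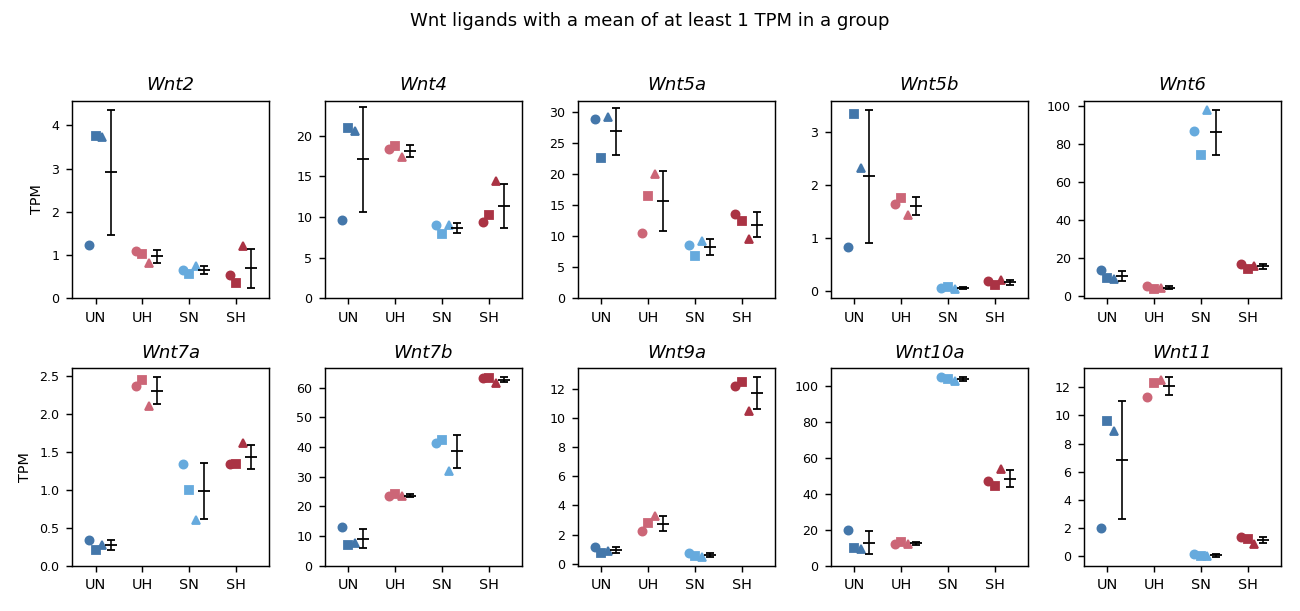
TPM (vertical axes, separate linear scales) of the 10 Wnt ligands with a mean of at least 1 TPM in a group, by group (UN, UH, SN, SH). Circles, squares and triangles are replicates 1, 2 and 3, and the bars beside them are the mean and SD (n = 3), with Wnt6 and Wnt10a highest in SN, Wnt7b and Wnt9a highest in SH, and Wnt11 highest in UH.

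Wnt10a, a β-catenin-dependent ligand required for teeth and hair, and its genomic neighbor Wnt6 had the highest levels of any ligand, both in SN cells. Wnt10a stood at 20.2, 9.69 and 9.12 TPM in UN, 12, 13.4 and 12.4 in UH, 105, 104 and 103 in SN and 47.2, 44.6 and 53.7 in SH. Every SN library was above every SH library, which in turn was above every unsorted library. On the log2 scale Wnt10a was higher by 2.99 ± 0.22 (SE) in SN than in UN cells (adjusted p = 1.73e-06, limma) and by 1.86 ± 0.22 in SH than in UH cells (adjusted p = 5.27e-05). Hypoxia lowered it in sorted cells, with a log2 fold change of −1.09 ± 0.22 in SH vs SN (adjusted p = 0.00217), whereas the UH vs UN value was 0.04 with a 95% interval of −0.44 to 0.53. Without UN1, the highest UN library for Wnt10a, the UH vs UN value was 0.39 (adjusted p = 0.00804, limma), under the fold threshold.

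Wnt6 was at 13.4, 9.04 and 8.51 TPM in UN, 5.15, 3.49 and 4.10 in UH, 87.1, 74.1 and 97.8 in SN and 16.6, 14.3 and 15.4 in SH. The 4 groups did not overlap, and SN libraries were the highest by a wide margin. Its log2 fold change was 2.96 ± 0.18 in SN vs UN (adjusted p = 3.49e-07, limma) and 4.06 ± 0.18 in SN vs UH (adjusted p = 1.14e-08). Hypoxia lowered Wnt6 in both populations, by −2.40 ± 0.18 in SH vs SN (adjusted p = 1.94e-06) and by −1.10 ± 0.18 in UH vs UN (adjusted p = 0.000362), although the latter lost its call without UN1 (−0.91, adjusted p = 0.000762) or UH2 and under median-of-ratios scaling (−0.79). In SH vs UN, where 1 hypoxic sorted group was set against the starting cells, Wnt6 was not called, with a log2 fold change of 0.56 and an adjusted p of 0.0197 (limma).

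Both genes lie on the same strand of chromosome 1 (GRCm38), Wnt6 at chr1:74771892-74785322 and Wnt10a at chr1:74791516-74804179, with 6.194 kb between them. Among the other genes listed within 200 kb, Ttll4, with group means of 25.8, 14.2, 41.4 and 19.2 TPM in UN, UH, SN and SH, and Zfp142, with 12.5, 7.90, 16.6 and 8.69 TPM, were also highest in SN. Gm29539, which lies within Wnt6 on the opposite strand, was low but above its unsorted libraries in every sorted library, with means of 0.0361, 0.0868, 0.831 and 1.43 TPM. Rnf25 at 38.9, 39.8, 38.7 and 51.3 TPM and Bcs1l at 22.8, 15.4, 17.7 and 17.9 TPM had other orders. In each of the other close pairs of ligand genes, Wnt3a beside Wnt9a, Wnt9b beside Wnt3 and Wnt1 beside Wnt10b, at least 1 gene was below the filter, so no such comparison was made.

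Wnt7b, a β-catenin-dependent ligand best known from the lung and the vessels of the brain, was higher in hypoxic than normoxic unsorted cells and higher again in sorted cells. It was at 12.9, 7.15 and 7.56 TPM in UN, 23.4, 24.3 and 23.4 in UH, 41.4, 42.2 and 32 in SN and 63.3, 63.2 and 61.7 in SH. The groups did not overlap and stood in the order UN, UH, SN and SH. The log2 fold change was 1.32 ± 0.18 in UH vs UN (adjusted p = 0.000104, limma), 1.99 ± 0.18 in SN vs UN (adjusted p = 8.84e-06) and 1.37 ± 0.18 in SH vs UH (adjusted p = 0.00011). In SH vs SN it was 0.70 ± 0.18 (adjusted p = 0.00885), under the fold threshold.

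Its close relative Wnt7a was a low ligand with a different order. Wnt7a was at 0.344, 0.212 and 0.274 TPM in UN, 2.38, 2.45 and 2.11 in UH, 1.35, 1.01 and 0.608 in SN and 1.35, 1.35 and 1.62 in SH. All UH libraries were above all others. With 1 added it was called in UH vs UN alone among the pairs, at 1.38 ± 0.15 (adjusted p = 1.52e-05, limma), and the SH vs SN value was 0.31 with a 95% interval of −0.01 to 0.63. With a pseudocount of 0.1 it was also called higher in SN vs UN (1.48) and SH vs UN (2.04) and lower in SN vs UH (−1.21).

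Wnt9a was the 1 ligand called higher with hypoxia in sorted cells. This ligand is known from joint formation and blood stem cell development. It was at 1.13, 0.720 and 0.894 TPM in UN, 2.21, 2.76 and 3.26 in UH, 0.736, 0.562 and 0.488 in SN and 12.2, 12.5 and 10.5 in SH. Each SH library was above every other library, and SN libraries were the lowest apart from an overlap with UN. The log2 fold change was 2.99 ± 0.16 in SH vs SN (adjusted p = 1.72e-07, limma) and 1.77 ± 0.16 in SH vs UH (adjusted p = 4.99e-06). In UH vs UN it was 0.96 ± 0.16 (adjusted p = 0.000339), just under the fold threshold, and passed it without UN1 (1.04) or under median-of-ratios scaling (1.18).

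Wnt11, a ligand of planar cell polarity and cell movement, was the clearest ligand of unsorted cells. It was at 2.01, 9.61 and 8.87 TPM in UN, 11.3, 12.3 and 12.5 in UH, 0.193, 0.0297 and 0 in SN and 1.36, 1.21 and 0.898 in SH. SN libraries were near 0 and SH libraries were below every unsorted library, of which UN1 was the lowest. The log2 fold change was −2.67 ± 0.37 in SN vs UN (adjusted p = 0.000231, limma), or −3.26 without UN1, and −2.60 ± 0.37 in SH vs UH (adjusted p = 0.000198). In UH vs UN it was 0.94 (adjusted p = 0.0583) and 0.35 without UN1, and in SH vs SN it was 1.00 (adjusted p = 0.0502), neither of them called, although the latter passed both thresholds without UN1 (1.00, adjusted p = 0.000163).

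The sequences just upstream of the start sites of Wnt9a, Wnt6 and Wnt11 are shown because the first rose with hypoxia in sorted cells, the second fell and the third was near 0 in SN cells. They are the 250 bases before the RefSeq start site, 5′ to 3′ on the gene's strand, in GRCm38.p6, all on the plus strand, with Wnt9a at chr11:59306680-59306929, Wnt6 at chr1:74771642-74771891 and the first of 2 starts of Wnt11 at chr7:98834862-98835111. Capitals mark ACGTG, a form of the hypoxia response element core, and CTTTGAT, a TCF/LEF motif, each searched on both strands. The form GCGTG was not searched, so a window without capitals may still hold that core. Overlapping matches of ACGTG on the 2 strands are drawn as a single run.
Wnt9a: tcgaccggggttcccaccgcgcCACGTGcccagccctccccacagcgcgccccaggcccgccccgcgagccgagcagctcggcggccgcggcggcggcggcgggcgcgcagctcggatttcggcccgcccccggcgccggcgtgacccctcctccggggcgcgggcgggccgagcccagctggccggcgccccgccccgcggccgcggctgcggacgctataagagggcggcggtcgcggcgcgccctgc
Wnt6: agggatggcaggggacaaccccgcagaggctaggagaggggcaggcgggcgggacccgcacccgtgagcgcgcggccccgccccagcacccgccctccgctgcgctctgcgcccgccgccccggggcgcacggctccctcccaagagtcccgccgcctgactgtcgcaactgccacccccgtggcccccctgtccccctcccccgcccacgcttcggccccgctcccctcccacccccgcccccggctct
Wnt11: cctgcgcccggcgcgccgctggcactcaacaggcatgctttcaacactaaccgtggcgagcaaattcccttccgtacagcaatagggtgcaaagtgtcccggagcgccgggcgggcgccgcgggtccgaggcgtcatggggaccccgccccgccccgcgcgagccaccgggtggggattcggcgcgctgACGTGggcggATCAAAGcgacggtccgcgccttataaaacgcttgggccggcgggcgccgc
Wnt9a held CACGTG, which contains ACGTG on each strand, beginning 228 bases before the start site. Wnt6 held neither motif in this window. At its first start Wnt11 held ACGTG beginning 61 bases before the start and ATCAAAG, the reverse complement of CTTTGAT, beginning 51 bases before it. The second start of Wnt11 held neither motif in its 250 bases. The same window of Wnt7a, which was called higher in UH vs UN and is not printed, also held neither. Of the 37 genes, 25 matched the table by symbol, with 28 promoters, and 4 of these (14.3%) held ACGTG, against 16.6% of all 32851 promoters of the same length. They were those of Wnt9a, Wnt11, Wnt5b and Fzd9. CTTTGAT was present in 2 (7.14%), Wnt11 and Wnt5b, against 3.21% of all promoters. A match describes letters only and is no measure of factor binding.

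The remaining expressed ligands were lower in SN than in UN cells or were not called. Wnt5a, the main ligand of β-catenin-independent signaling, was at 28.8, 22.5 and 29.2 TPM in UN, 10.5, 16.5 and 20.04 in UH, 8.61, 6.79 and 9.26 in SN and 13.5, 12.4 and 9.59 in SH. UN libraries were above all others, while UH and SH overlapped. It was lower in SN vs UN, at −1.60 ± 0.22 (adjusted p = 0.000196, limma), and in SH vs UN, at −1.12 (adjusted p = 0.00107), although the SH vs UN call was lost without SH3 and under median-of-ratios scaling, and the UH vs UN value was −0.78 (adjusted p = 0.0119).

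Wnt5b, its paralog, was at 0.837, 3.34 and 2.33 TPM in UN, 1.64, 1.77 and 1.43 in UH, 0.0609, 0.0754 and 0.0424 in SN and 0.188, 0.122 and 0.214 in SH. Both sorted groups were below all unsorted libraries. It was lower by −1.49 ± 0.24 in SN vs UN (adjusted p = 0.000567, limma) and by −1.15 ± 0.24 in SH vs UH (adjusted p = 0.00238). Wnt2, a ligand of liver sinusoidal and central vein ECs, was at 1.24, 3.76 and 3.74 TPM in UN, 1.08, 1.02 and 0.803 in UH, 0.654, 0.563 and 0.753 in SN and 0.528, 0.341 and 1.20 in SH. UN1 lay near the other groups and the other UN libraries were above them. The SN vs UN value for Wnt2 was −1.16 ± 0.27 (adjusted p = 0.00633, limma), which became −1.52 without UN1 and lost its call without UN2 or UN3 (down to −0.98).

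Wnt4, a ligand of kidney and reproductive tract development, was among the higher ligands but was not called in any pair. It was at 9.63, 21 and 20.6 TPM in UN, 18.4, 18.8 and 17.4 in UH, 8.98, 7.94 and 8.96 in SN and 9.38, 10.3 and 14.4 in SH. Unsorted libraries were higher than sorted ones except for UN1. In SN vs UN its log2 fold change came to −0.84 (adjusted p = 0.022, limma) and passed the fold threshold without UN1, at −1.18 (adjusted p = 0.000217). Of the low ligands that were tested, Wnt10b was listed at 0 in the 3 SN libraries and did not exceed 0.565 TPM elsewhere, Wnt3 was highest in SH at 0.251 to 0.389 TPM, and Wnt2b did not exceed 0.369 TPM.

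**Figure D3:**
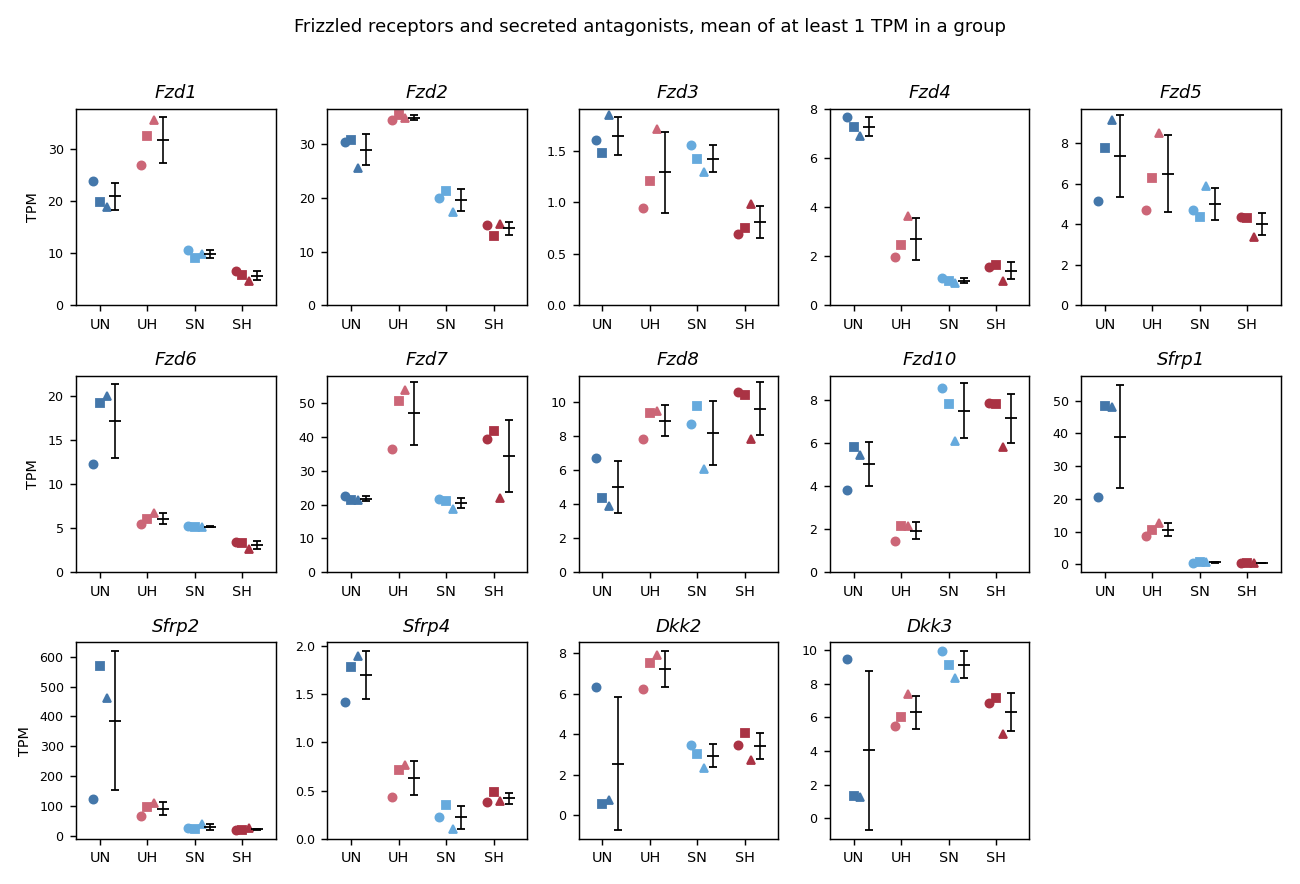
TPM (vertical axes, separate linear scales) of the 14 Fzd, Sfrp and Dkk genes with a mean of at least 1 TPM in a group, by group (UN, UH, SN, SH). Circles, squares and triangles are replicates 1, 2 and 3, and the bars beside them are the mean and SD (n = 3), with UN1 (dark blue circle) apart from UN2 and UN3 for Sfrp1, Sfrp2, Dkk2 and Dkk3.

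Summed receptor transcripts covered a narrower range than summed ligands. The 10 Fzd genes summed to 115 ± 2.40 TPM in UN (SD, n = 3), 142 ± 18.7 in UH, 78.5 ± 6.04 in SN and 81.1 ± 14.8 in SH. The close relatives Fzd1, Fzd2 and Fzd7 made up 58.1% to 67.2% of this in UN, 79.4% to 81.0% in UH, 63.3% to 64.2% in SN and 65.3% to 67.9% in SH libraries. Fzd2 ranked first in UN at a mean of 29.0 TPM without overlap with Fzd7, which led in UH at 47.0 TPM and in SH at 34.3 TPM, while in SN Fzd7 and Fzd2 overlapped at 20.5 and 19.6 TPM.

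Fzd1 was at 23.9, 19.9 and 18.9 TPM in UN, 26.9, 32.6 and 35.6 in UH, 10.7, 9.15 and 9.78 in SN and 6.51, 5.91 and 4.70 in SH. The 4 groups did not overlap, with UH libraries at the top and SH libraries at the bottom. Neither hypoxia response reached the fold threshold, at 0.58 in UH vs UN (adjusted p = 0.00762, limma) and −0.70 in SH vs SN (adjusted p = 0.00276), but the comparison of sorted with unsorted cells gave −2.29 ± 0.15 in SH vs UH (adjusted p = 4.83e-07). In SN vs UN the value was −1.01 (adjusted p = 0.000341), close to the threshold and no longer called without UN1, without SN2 or under median-of-ratios scaling.

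Fzd2, a receptor for Wnt5a, followed the same order, with 25.7 to 30.9 TPM in UN, 34.5 to 35.5 in UH, 17.4 to 21.4 in SN and 13.0 to 15.1 in SH libraries and a single call, of −1.23 ± 0.11 in SH vs UH (adjusted p = 7.07e-06, limma). Fzd7 was at 22.6, 21.4 and 21.4 TPM in UN, 36.5, 50.7 and 54.0 in UH, 21.7, 21 and 18.8 in SN and 39.3, 41.7 and 22.0 in SH. UH libraries were above all UN and SN libraries, and SH3 lay far below the other SH libraries. Fzd7 was higher in UH than in UN cells by 1.06 ± 0.21 (adjusted p = 0.00162, limma), a call lost without UH2 or UH3 (down to 0.95), and the SH vs SN value was 0.67 (adjusted p = 0.0257).

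Fzd4 and Fzd6 were highest in UN cells. Fzd4, which also binds the non-Wnt ligand Norrin in retinal vessels, was at 7.68, 7.26 and 6.92 TPM in UN, 1.96, 2.48 and 3.64 in UH, 1.10, 0.996 and 0.921 in SN and 1.57, 1.64 and 1.01 in SH. UN libraries were above all others, and SN and SH overlapped. The log2 fold change was −2.05 ± 0.18 in SN vs UN (adjusted p = 6.51e-06, limma) and −1.19 ± 0.18 in UH vs UN (adjusted p = 0.000205), and under median-of-ratios scaling the latter was −0.91 and not called. Fzd6, a receptor of planar cell polarity, was at 12.3, 19.1 and 19.98 TPM in UN, 5.50, 6.05 and 6.69 in UH, 5.27, 5.07 and 5.17 in SN and 3.43, 3.26 and 2.61 in SH. The UN libraries were the highest and the SH libraries the lowest, without overlap. It was lower by −1.33 ± 0.18 in UH vs UN (adjusted p = 8.67e-05, limma) and by −1.53 ± 0.18 in SN vs UN (adjusted p = 6.38e-05).

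Fzd10 was the 1 receptor called higher in sorted than in unsorted hypoxic cells. It was at 3.83, 5.79 and 5.44 TPM in UN, 1.47, 2.16 and 2.15 in UH, 8.57, 7.83 and 6.11 in SN and 7.84, 7.79 and 5.83 in SH. UH libraries were the lowest and all sorted libraries were above all unsorted ones. The log2 fold change was 1.48 ± 0.19 in SH vs UH (adjusted p = 9.34e-05, limma) and −1.04 ± 0.19 in UH vs UN (adjusted p = 0.000894), a call lost without UN2, UN3 or UH1 and under median-of-ratios scaling (−0.77). The remaining receptors were not called in any pair, with means of 5.0 to 9.63 TPM for Fzd8, 4.01 to 7.37 for Fzd5, 0.809 to 1.64 for Fzd3 and 0.255 to 0.613 for Fzd9 over the 4 groups.

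Sfrp genes were the most unequal antagonists between unsorted and sorted cells. Sfrp2 had the highest level of all 37 genes, at 123, 571 and 462 TPM in UN, 66.7, 97.4 and 109 in UH, 25.0, 22.8 and 39.6 in SN and 20.4, 19.9 and 24.2 in SH. Even UN1, the lowest of the UN libraries, was above all UH libraries, and these were above both sorted groups. Sfrp2 was lower by −3.45 ± 0.45 in SN vs UN (adjusted p = 0.000152, limma), by −1.83 ± 0.45 in UH vs UN (adjusted p = 0.00593) and by −2.0 ± 0.45 in SH vs UH (adjusted p = 0.0042). Without UN1 the first value was −4.13 and the second was −2.51.

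Sfrp1 fell further. It was at 20.7, 48.5 and 48.0 TPM in UN, 8.73, 10.6 and 12.6 in UH, 0.595, 0.606 and 0.683 in SN and 0.440, 0.412 and 0.398 in SH. No groups overlapped, and both sorted groups were below 1 TPM. Its log2 fold change was −4.53 ± 0.27 in SN vs UN (adjusted p = 3.38e-07, limma), −1.70 ± 0.27 in UH vs UN (adjusted p = 0.000311) and −3.02 ± 0.27 in SH vs UH (adjusted p = 5.8e-06), and the first 2 of these were −4.92 and −2.10 without UN1. In SH vs SN the value was −0.20 with a 95% interval of −0.79 to 0.39, although the added 1 limits what can be seen at such levels.

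Sfrp4 was low, at 1.42 to 1.89 TPM in UN, 0.433 to 0.761 in UH, 0.104 to 0.346 in SN and 0.384 to 0.484 in SH libraries. It was called in SN vs UN, at −1.14 ± 0.13 (adjusted p = 4.29e-05, limma). The summed Sfrp TPM was 145 in UN1, 621 in UN2 and 511 in UN3, and ranged from 75.9 to 122 in UH, 23.8 to 40.4 in SN and 21 to 25.0 in SH. Of 9 fibroblast markers tested, 5 were called lower and none higher in SN vs UN, and 6 lower and 1 higher in SH vs UH. Within UN cells the marker sum was highest in UN1, where Sfrp2 was lowest, whereas the marker Pdgfra was at 80.4, 168 and 176 TPM in UN1, UN2 and UN3, in the direction of Sfrp2. The part of such cells in the Sfrp differences was not tested.

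The Dkk genes Dkk2 and Dkk3 were the members for which UN1 mattered most. Dkk2, an antagonist that binds Lrp5 and Lrp6, was at 6.32, 0.541 and 0.777 TPM in UN, 6.21, 7.53 and 7.89 in UH, 3.45, 3.03 and 2.34 in SN and 3.48, 4.04 and 2.74 in SH. UN1 was within the range of the UH libraries, whereas UN2 and UN3 were below every other library. Dkk2 was higher in UH than in UN cells by 1.59 ± 0.45 (adjusted p = 0.0129, limma), or by 2.31 ± 0.18 without UN1, and the call was lost without UN2 or UN3 (down to 1.18). In SN vs UN it was 0.53 (adjusted p = 0.417) with all libraries and 1.24 (adjusted p = 0.000419) without UN1.

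Dkk3, the divergent member of the family, was at 9.50, 1.33 and 1.27 TPM in UN, 5.51, 6.04 and 7.41 in UH, 9.94, 9.15 and 8.37 in SN and 6.84, 7.13 and 5.01 in SH. UN2 and UN3 were again below all others, and UN1 was as high as the SN libraries. The SN vs UN value was 1.41 ± 0.46 (adjusted p = 0.0328, limma), or 2.14 ± 0.17 without UN1, but it was lost without any 1 of UN2, UN3, SN1, SN2 or SN3, with a lowest value of 1.03. In UH vs UN it was 0.93 (adjusted p = 0.119), and 1.66 (adjusted p = 2.47e-05) without UN1. Sums over the 4 Dkk genes were 15.8, 1.97 and 2.14 TPM in the UN libraries and 7.75 to 15.3 TPM in all others.

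**Figure D4:**
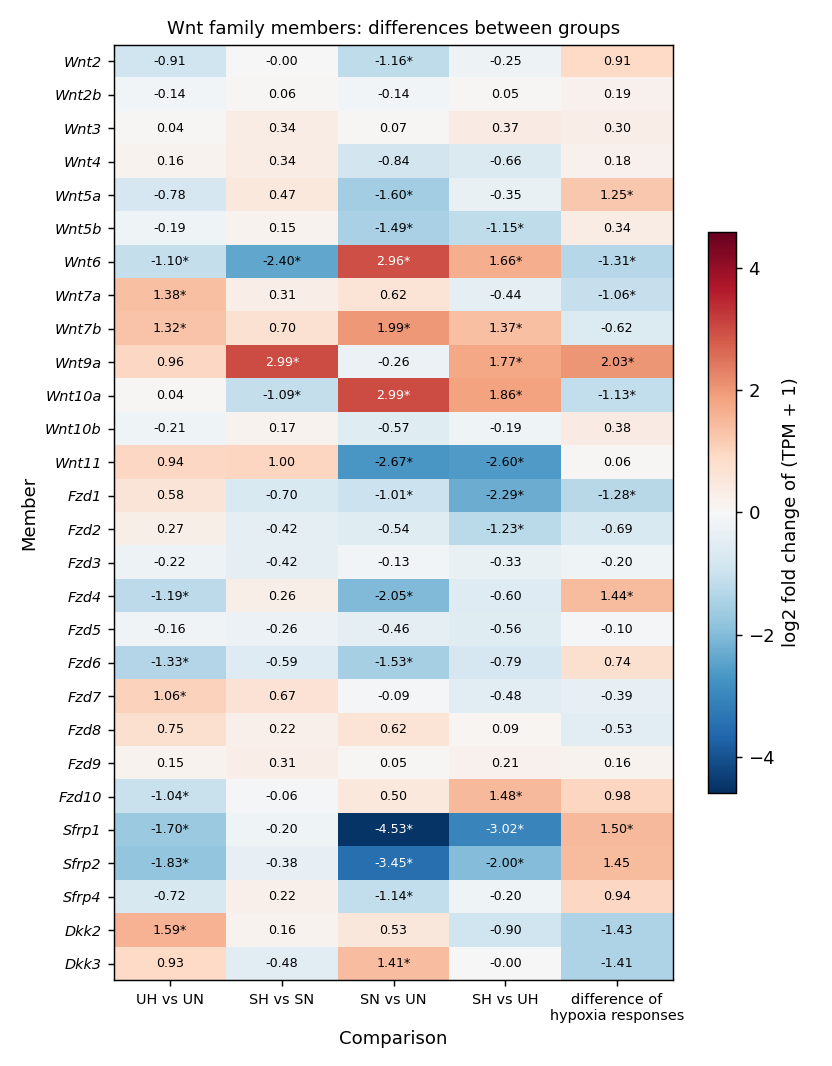
Log2 fold changes of TPM + 1 (color scale, with the number in each cell) of the 28 tested genes (rows) in 4 pairs of groups and in the difference between the hypoxia responses of sorted and unsorted cells (columns). Asterisks mark calls at an adjusted p under 0.05 and a fold above 2, of which there are 10 in UH vs UN, 3 in SH vs SN, 14 in SN vs UN, 11 in SH vs UH and 8 in the difference.

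Taking the comparisons in turn, hypoxia in unsorted cells (UH vs UN) was called for 10 of the 28 genes (35.7%), against 17.2% of all genes tested. Calls were higher for 4 members and lower for 6, against 5.46% and 11.8% of all genes, and libraries did not overlap for 17 of the 28, against 51.1% of all genes. Wnt7a, Wnt7b, Fzd7 and Dkk2 were higher, and Wnt6, Fzd4, Fzd6, Fzd10, Sfrp1 and Sfrp2 were lower. All genes had a median log2 fold change of −0.19 here, and 0 after median-of-ratios scaling, under which 7 were higher and 3 lower, with Wnt9a, Wnt11 and Fzd8 added at 1.18, 1.26 and 1.06 and Wnt6, Fzd4 and Fzd10 lost. The balance between higher and lower members in this comparison therefore moved with the scaling, while no called member changed sign. Without UN1 there were 6 higher and 6 lower, with Wnt9a and Dkk3 added as higher, Wnt2 added as lower (−1.28) and Wnt6 lost.

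Hypoxia in sorted cells (SH vs SN) was called for 3 of the 28 (10.7%), against 12.5% of all genes, a share near the background. Wnt9a was higher and Wnt6 and Wnt10a were lower, against 7.47% and 5% of all genes in those directions. Libraries did not overlap for 21 of the 28, against 56.8% of all genes. The median of the 28 was 0.16 against 0.03 for all genes. With a pseudocount of 0.1 in place of 1 there were 6 calls, with Wnt3, Wnt10b and Wnt11 added on the higher side.

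Sorted against unsorted cells in normoxia (SN vs UN) was called for 14 of the 28 (50%), against 10.8% of all genes, with 4 higher and 10 lower against 3.2% and 7.57% of all genes. Libraries did not overlap for 19 of the 28, against 49% of all genes. Wnt6, Wnt7b, Wnt10a and Dkk3 were higher, and Wnt2, Wnt5a, Wnt5b, Wnt11, Fzd1, Fzd4, Fzd6, Sfrp1, Sfrp2 and Sfrp4 were lower. The median was −0.36 against −0.06 for all genes. Without UN1 there were 15, with Dkk2 added as higher and Wnt4 as lower and Fzd1 lost.

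In hypoxia (SH vs UH) 11 of the 28 were called (39.3%), against 13% of all genes, whose median log2 fold change was 0.17, or 0.03 after median-of-ratios scaling. The 5 higher genes were Wnt6, Wnt7b, Wnt9a, Wnt10a and Fzd10, and the 6 lower were Wnt5b, Wnt11, Fzd1, Fzd2, Sfrp1 and Sfrp2, against 7.65% and 5.35% of all genes. Libraries did not overlap for 19 of the 28, against 51.7% of all genes. In SH vs UN 12 were called (42.9%, background 20.3%), 3 higher and 9 lower (backgrounds 8.97% and 11.3%), with no overlap for 23 genes (background 59.4%). Without UN1 there were 6 higher and 9 lower in SH vs UN, with Dkk2, Dkk3 and Fzd8 added, and a pseudocount of 0.1 gave 6 and 12. In SN vs UH 10 were called (35.7%, background 21.4%), 3 higher and 7 lower (backgrounds 12.3% and 9.17%), with no overlap for 22 genes (background 59.4%). Median-of-ratios scaling raised the lower genes in SN vs UH to 12, and the fit without UN1 added Dkk2 as lower (−1.06). Because these pairs share groups, their calls are not independent of each other.

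**Figure D5:**
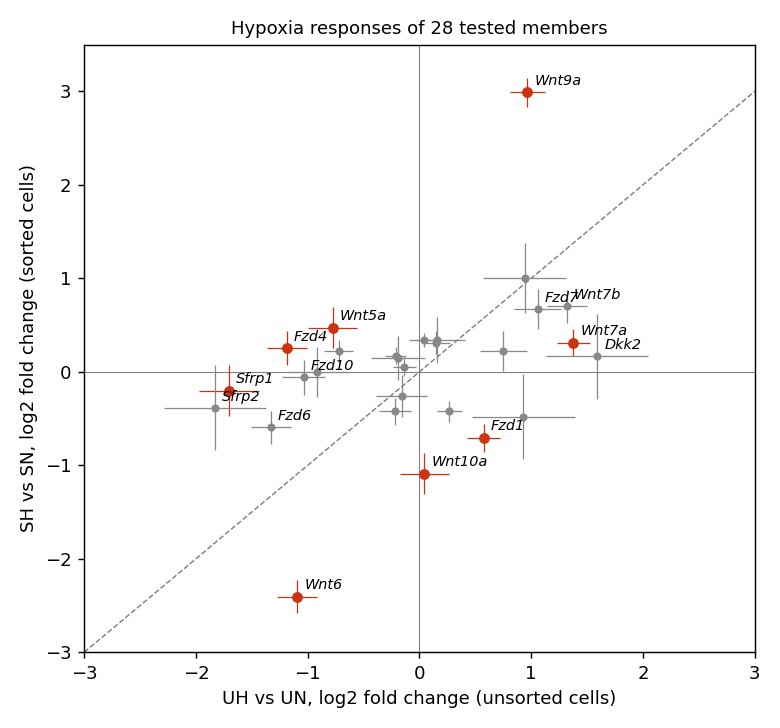
Log2 fold change of the 28 tested genes with hypoxia in unsorted cells (UH vs UN, horizontal) and in sorted cells (SH vs SN, vertical), with bars of 1 SE, a dashed line of equal response, and larger red points for the 8 genes whose responses differed by the tested interaction. Wnt9a lies far above the line (0.96 and 2.99), and Wnt6 (−1.10 and −2.40), Wnt10a, Fzd1 and Wnt7a lie below it.

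The difference between the hypoxia responses of sorted and unsorted cells, (SH − SN) − (UH − UN), was called for 8 of the 28 (28.6%), against 10.3% of all genes, with 4 positive and 4 negative against 8.08% and 2.18%. It was positive for Wnt9a (2.03 ± 0.22, adjusted p = 0.000139, limma), which responded more in sorted cells. It was positive as well for Sfrp1 at 1.5, Fzd4 at 1.44 and Wnt5a at 1.25, whose values in UH vs UN were −1.70, −1.19 and −0.78 and whose values in SH vs SN were −0.20, 0.26 and 0.47. Sfrp1 was at 0.595 to 0.683 TPM in SN, so the added 1 left little room for a further fall. Its difference thus partly reflects that floor, and with a pseudocount of 0.1 it was 1.29 (adjusted p = 0.0475, limma). Fzd4, at 0.921 to 1.10 TPM in SN, also had limited room, and its value was then 1.87 (adjusted p = 0.00484, limma). A negative difference was found for Wnt6 at −1.31, Fzd1 at −1.28, Wnt10a at −1.13 and Wnt7a at −1.06. The Wnt10a call was lost in 8 of the 12 fits that left out a library, among them those without UN2 or UN3, with values from −1.48 to −0.94, that for Wnt7a was lost without SN1 (−0.94), and that for Wnt5a was lost under median-of-ratios scaling (0.92). Under that scaling, which moved the median difference of all genes from 0.25 to 0.02, there were 3 positive and 5 negative calls, with Fzd2 added at −1.02. Without UN1 the count was 14, with 8 positive and 6 negative, the additions being Wnt2, Sfrp2, Sfrp4 and Fzd10 on the positive and Dkk2 and Dkk3 on the negative side.

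Other genes of the pathway, from 7 lists drawn up for this description, were examined for context, and 63 of their members were tested. In UH vs UN 3 were higher and 16 lower, in SH vs SN 4 and 4, in SN vs UN 7 and 14, and in SH vs UH 5 and 8. The shares called were 30.2%, 12.7%, 33.3% and 20.6%, against 17.2%, 12.5%, 10.8% and 13% of all genes, so that in SH vs SN the share was near the background. Their median in UH vs UN was −0.45 on the log2 scale, against −0.19 for all genes, and under median-of-ratios scaling, an alternative chosen after seeing the data, 5 were higher and 12 lower. Without UN1 the counts were 3 and 14 in UH vs UN and 7 and 15 in SN vs UN.

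Of 4 genes of Wnt secretion and release, 1 was higher and 1 lower in UH vs UN and 2 were higher in SH vs SN, and Porcn was the only one called in both. Porcn, which attaches the lipid to Wnt, had group means of 3.73, 15.4, 1.63 and 10.4 TPM in UN, UH, SN and SH and was higher by 1.82 ± 0.23 in UH vs UN (adjusted p = 6.62e-05, limma) and by 2.1 ± 0.23 in SH vs SN (adjusted p = 3.54e-05). Wls, the carrier of Wnt to the cell surface and named here after its values were seen, was abundant at 113 to 163 TPM over the group means. The Wnt-inactivating enzymes differed, since Notum, a lipid-removing esterase, was lower in UH vs UN at −1.93 (adjusted p = 0.00353), and Trabd2b, a protease, was lower in SN vs UN at −2.28 (adjusted p = 0.00115) and higher in SH vs SN at 2.04 (adjusted p = 0.00184).

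Among 8 co-receptors and other Wnt receptors tested, 1 was higher and 3 were lower in UH vs UN, and 2 were lower with none higher in SN vs UN. The co-receptor Lrp5 had group means of 47.7, 137, 60.7 and 230 TPM and was higher with hypoxia in both populations, by 1.5 ± 0.13 in UH vs UN (adjusted p = 3.72e-06, limma) and by 1.90 ± 0.13 in SH vs SN (adjusted p = 1.22e-06). The Wnt5a receptor Ror2 and the planar polarity receptor Ptk7 were lower in sorted cells, with SN vs UN values of −2.90 (adjusted p = 5.06e-07) and −4.61 (adjusted p = 3.91e-07). In UH vs UN both were lower too, at −1.79 and −1.92, as was Ror1 at −1.02 (adjusted p = 0.00736).

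Of the R-spondin axis, which sets how long Fzd receptors stay at the surface, 4 of 7 tested genes were lower in UH vs UN, where 11.8% of all genes were, and none higher. Rnf43, a ligase that removes Fzd from the membrane, was at means of 7.94, 2.85, 0.115 and 0.152 TPM and was lower in SN vs UN at −2.92 (adjusted p = 1.5e-05, limma). Lgr6 was higher in SN vs UN at 2.40 (adjusted p = 2.48e-05), the ligand gene Rspo3 was lower in SH vs SN at −2.24 (adjusted p = 4.44e-07), and Lgr5 was lower in UH vs UN at −1.34 (adjusted p = 0.000735). In contrast to Sfrp1 and Sfrp2, the secreted antagonist Igfbp4 was higher in sorted cells, with means of 88.4, 25.4, 348 and 125 TPM and values of 1.96 in SN vs UN (adjusted p = 6.4e-06) and −1.79 in UH vs UN (adjusted p = 7.06e-06). The Sfrp relative Frzb was lower in SN vs UN at −1.34 and Sost was higher at 1.46, both from means of 2.04 TPM or less.

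Inside the cell, 2 of 21 relay genes were lower in UH vs UN, a share not above the 11.8% of all genes, namely Tcf7 at −2.18 (adjusted p = 1.33e-05, limma) and Ctnnbip1 at −1.40 (adjusted p = 1.15e-05). Lef1 was higher in SN vs UN at 1.64 (adjusted p = 0.00045) and the TCF gene Tcf7l1 was lower at −2.26 (adjusted p = 9.25e-05) and higher in SH vs SN at 1.68 (adjusted p = 0.00055). Feedback genes that restrain the pathway went in both directions in SN vs UN, with 2 higher and 3 lower among 8, of which Dact1 at −2.08, Dact3 at −2.05 and Nkd2 at −1.89 were the lower ones, and Apcdd1 was lower in UH vs UN at −1.80. The common readout Axin2, likewise named after its values were seen, had means of 10.7, 8.33, 8.64 and 6.70 TPM and was not called in these 4 pairs. Of 11 planar cell polarity genes, Prickle1 was lower in UH vs UN at −2.03 and in SN vs UN at −1.80, Vangl2 was lower in UH vs UN at −1.58, Invs was lower in SN vs UN at −1.58, and Celsr3 was higher in UH vs UN at 1.52.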

How the data were processed

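RNA of BN1-Tie2-EGFP cells was sequenced as 12 stranded, paired-end mRNA libraries, 3 in each of the groups UN, UH, SN and SH. The authors deposited a single table of TPM per gene, a measure scaled to transcript length and to a library total of 1000000. The submitters' processing notes name nf-core/rnaseq 3.12.0 and the mouse build mm10, and the gene annotation was not given in the sources used here. Read counts are not part of the TPM scale, so depth is unknown, and 18901 to 22369 genes were above 0 per library.

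Groups were taken from the sample labels, whose titles also call unsorted cells EGFP+. Genes were selected by symbol, and all 37 were located in GENCODE M21 (GRCm38). The members, gene lists and tests were chosen with earlier results of these data known. Log2(TPM + 1) values of genes with a mean of at least 0.1 TPM entered a limma fit (version 3.58.1, R 4.3.3) of 4 group means over 12 libraries, with empirical Bayes moderation that included a trend. The 6 pairs of groups and the difference of hypoxia responses were tested, with calls made where the p adjusted over all genes tested (Benjamini-Hochberg) was below 0.05 and the fold above 2. Errors are SD for levels and SE for fold changes. Permutation tests enumerated every split of a pair's libraries with numpy 2.4.6, and plots used matplotlib 3.10.9. Tables and sequences were handled in Python 3.11.15 with pandas 2.3.3.

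Members were described with values where their mean was at least 1 TPM in a group or they were called, and otherwise named with their range. From each pathway list up to 4 called genes with the largest log2 fold changes were named. Alternatives were a pseudocount of 0.1, no filter, a filter at 1 TPM, median-of-ratios scaling, a replicate block, no trend, an expression threshold of 0.1 TPM and leaving out each library. For the pathway lists, scaling and the fit without UN1 were chosen after seeing the data. Libraries were treated as unpaired. Correlations of deviations between same-numbered libraries ran from −0.12 to 0.14 and only 1 of 18 was over 0.1. Deviations from a mean of 3 libraries cannot show that same-numbered libraries were prepared separately. Promoter sequences came from RefSeq (GRCm38.p6).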

Additional observations from a re-analysis of the deposited data

Results flagged for a closer look

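The hypoxia responses of sorted and unsorted cells differed by the interaction test for 8 genes, given here as the log2 response of sorted minus that of unsorted cells. The value was 2.03 for Wnt9a, which was called higher with hypoxia in sorted cells and had a value of 0.96 in unsorted cells. It was 1.5 for Sfrp1, 1.44 for Fzd4 and 1.25 for Wnt5a, of which Sfrp1 and Fzd4 were lower in hypoxia in unsorted cells and none was called in sorted cells. The low SN levels of Sfrp1 and Fzd4, with 1 added, left limited room for a fall in sorted cells. It was −1.31 for Wnt6, which was lower with hypoxia in both populations. For Fzd1 it was −1.28, from values of 0.58 in unsorted and −0.70 in sorted cells, neither of them called. For Wnt10a, lower with hypoxia in sorted cells, it was −1.13, and for Wnt7a, higher with hypoxia in unsorted cells, −1.06. The Wnt10a call was lost in 8 of the 12 fits that left out a library. That for Wnt7a was lost without SN1, and that for Wnt5a under median-of-ratios scaling.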

How the results depend on the processing

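No called member changed sign under any alternative. Counts of called members that moved by more than 1.5 times were that for SH vs SN, which went from 3 to 6 with a pseudocount of 0.1, and that for the difference of hypoxia responses, which went from 8 to 14 without UN1. At a threshold of 0.1 TPM the number of genes expressed in SH cells was 30 in place of 19. Leaving out each library in turn gave 8 to 12 calls in UH vs UN, 3 to 4 in SH vs SN, 12 to 15 in SN vs UN, 11 in every fit of SH vs UH, 11 to 15 in SH vs UN, 10 to 12 in SN vs UH and 7 to 14 in the difference, and 21 to 23 expressed genes in UN, 22 to 23 in UH, 16 to 18 in SN and 19 in SH. Of 816 values of called members under these fits, 786 kept their call and 30 lost it, and median-of-ratios scaling kept 62 of 68. With the replicate number as a block the counts of calls were 10, 3, 14, 11, 12, 10 and 8, equal to those without it. TPM do not give the depth, so the precision of genes near 0, such as Wnt3 or Wnt10b, is not known beyond the spread of 3 libraries.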
